A study of Gallus gallus with 45 samples.

Results

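The subject is the set of nuclear genes for the mitochondrial respiratory chain and the mitochondrial ribosome in the jejunum of young broilers. Genes were taken by symbol alone, namely those starting with NDUF, SDH, UQCR or ATP5, those starting with COX and a digit between 4 and 8, and those starting with MRPL or MRPS. The RefSeq gene table holds 160 such genes, of which 43 could be matched to probes on the array, among 4655 genes with a symbol in all. The 22 respiratory chain genes comprised 11 of complex I, 2 of complex II, 2 of complex III, 3 of complex IV and 4 of complex V. The 21 mitochondrial ribosome genes comprised 12 named for the large subunit (MRPL) and 9 named for the small subunit (MRPS). One of the complex I genes, NDUFAF2, encodes an assembly factor and not a subunit, and it was kept because its symbol fits the rule.

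Complexes I and II pass electrons from NADH and succinate to coenzyme Q, complex III passes them on to cytochrome c, and complex IV hands them to oxygen. Complexes I, III and IV pump protons, and complex V, the ATP synthase, uses the resulting gradient to make ATP. A small number of core subunits are encoded in mitochondrial DNA and are made inside the organelle on the mitochondrial ribosome, all of whose proteins are nuclear-encoded. Absorptive epithelium relies on this ATP to drive nutrient uptake.

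Broiler lines Y and X, which are genetically divergent, were compared at hatch (day 0) and at days 4 and 16, with birds of both lines receiving the same feed in separate pens. Each array was hybridised with RNA of jejunal tissue from a pool of 10 birds. The groups were line Y at day 0 (7 pools), line X at day 0 (7 pools), line Y at day 4 (7 pools), line X at day 4 (8 pools), line Y at day 16 (8 pools) and line X at day 16 (8 pools). The labels name no treatment for any group. For line Y pools 2 to 8, one label states 4 days and another states 0 days, and these pools were placed at day 0. The paper's list of microbiota samples also gives line Y pools 2 to 8 an age of 0. Because each line had its own pen and each group its own slides, neither pen and line nor slide and group can be told apart, and p-values measure the spread between pools. The tissue was whole jejunum, so a lower level can mean fewer cells of a type or less RNA per cell, and these cannot be told apart.

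All 45 arrays were one-colour Agilent arrays, and levels below are log2 intensities averaged over the probes of a gene. The median raw intensity of an array lay between 78 and 262, and 61.8 to 81.8% of its probes were well above background. Line Y arrays at day 0 were the brightest before normalization, with medians of 197 to 262 against 140 to 173.5 for line X at day 0. All 96 probes of the 43 genes were well above background in every array, with 1 to 6 probes per gene. Each passed the filter on dim probes in at least 1 group, which was all that the filter asked. In all groups 38 of the 43 genes passed it, and NDUFAF2, MRPS6, MRPL15 and MRPS30 were among those that did not. Very bright probes reached the ceiling of the scanner. Of the 43 genes, 8 had a probe that was saturated on at least 1 array, all of them in the respiratory chain, and for 5 genes (COX4I1, COX6C, ATP5I, ATP5J2 and NDUFB5) this held for every probe. COX6C was saturated on 42 of 45 arrays and averaged at most 16.00 in any pool. Differences of these genes have a ceiling, though NDUFB5 was saturated on only 2 of 45 arrays. All 5 genes stay in the counts, means and medians of the respiratory chain below.

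As a class, the respiratory chain genes had their lowest mean level in line X at day 0 (the plot of class levels by pool). Each gene was expressed as its deviation from its own mean over all arrays, and these deviations were averaged per pool. At day 0 the respiratory chain mean was 0.05 ± 0.06 in line Y and -0.17 ± 0.06 in line X (SD, n = 7 each). The pools of the 2 lines did not overlap, with -0.01 to 0.15 in line Y against -0.29 to -0.10 in line X. This gap in means leaned on 2 genes. NDUFAF2 differed by 2.18 and ATP5F1AZ by 1.25 between the lines, while the median difference of the 22 genes was 0.07. At day 4 the means were 0.10 ± 0.05 in line Y (n = 7) and 0.03 ± 0.06 in line X (n = 8), and the pools overlapped. The median difference was then -0.04, with NDUFAF2 at 1.94 and ATP5F1AZ at 0.67. At day 16 the order was the opposite, with -0.10 ± 0.15 in line Y and 0.09 ± 0.04 in line X (n = 8 each). The line Y pools at day 16 were the most dispersed of the 6 groups, ranging from -0.36 to 0.08, and the 2 lowest were pools 23 and 24.

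**Figure D1:**
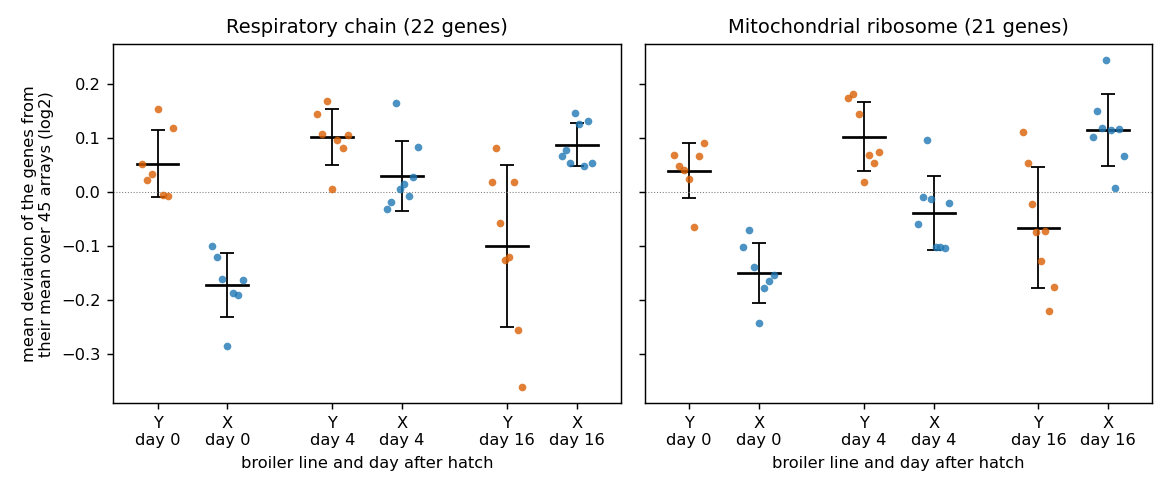
Mean deviation of 22 respiratory chain genes and of 21 mitochondrial ribosome genes from their own means over 45 arrays (log2, vertical axis), for lines Y and X at days 0, 4 and 16. Points are pools, horizontal lines are group means and bars are SD; line X at day 0 is the lowest group for both classes, and line Y at day 16 has the widest spread.

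The mitochondrial ribosome genes followed almost the same course. Their mean deviation was 0.04 ± 0.05 in line Y and -0.15 ± 0.06 in line X at day 0, 0.10 ± 0.06 in line Y and -0.04 ± 0.07 in line X at day 4, and -0.07 ± 0.11 in line Y and 0.11 ± 0.07 in line X at day 16. Taken pool by pool, the respiratory chain mean minus the mitochondrial ribosome mean averaged between -0.03 and 0.07 in the 6 groups, with SDs of 0.02 to 0.08. The widest gap was that of line X at day 4, where it averaged 0.07 ± 0.05 (n = 8). The 3740 genes with a symbol that passed the filter had group means between -0.12 and 0.06, and the lowest of these was also that of line X at day 0 (-0.12 ± 0.02).

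A gene is called higher or lower when limma gave a Benjamini-Hochberg adjusted p below 0.05 over all 21443 features tested and the fold change exceeded 1.3. At day 0, 10 of the 43 genes were higher and 2 lower in line Y. The split was 5 higher and 7 lower when arrays were scaled to their 75th percentile instead of quantile-normalized, beside 19.3% and 19.4% of all features. With quantile normalization, 6 of 22 respiratory chain genes were higher and 2 lower, and 4 of 21 mitochondrial ribosome genes were higher and 0 lower. Of all features tested, 18.2% were higher and 19.3% lower, and of the genes with a symbol 19.3% were higher and 10.8% lower. The share of the 43 genes that was higher, 23.3%, was thus near the background, while 4.65% were lower. The median log2 difference was 0.07 for the respiratory chain and 0.20 for the mitochondrial ribosome, against -0.03 for all features, although the brightest probe of each gene gave a ribosomal median of -0.07, and leaving out saturated probes gave a respiratory chain median of 0.24, so that the order of the 2 classes depended on these choices.

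**Figure D2:**
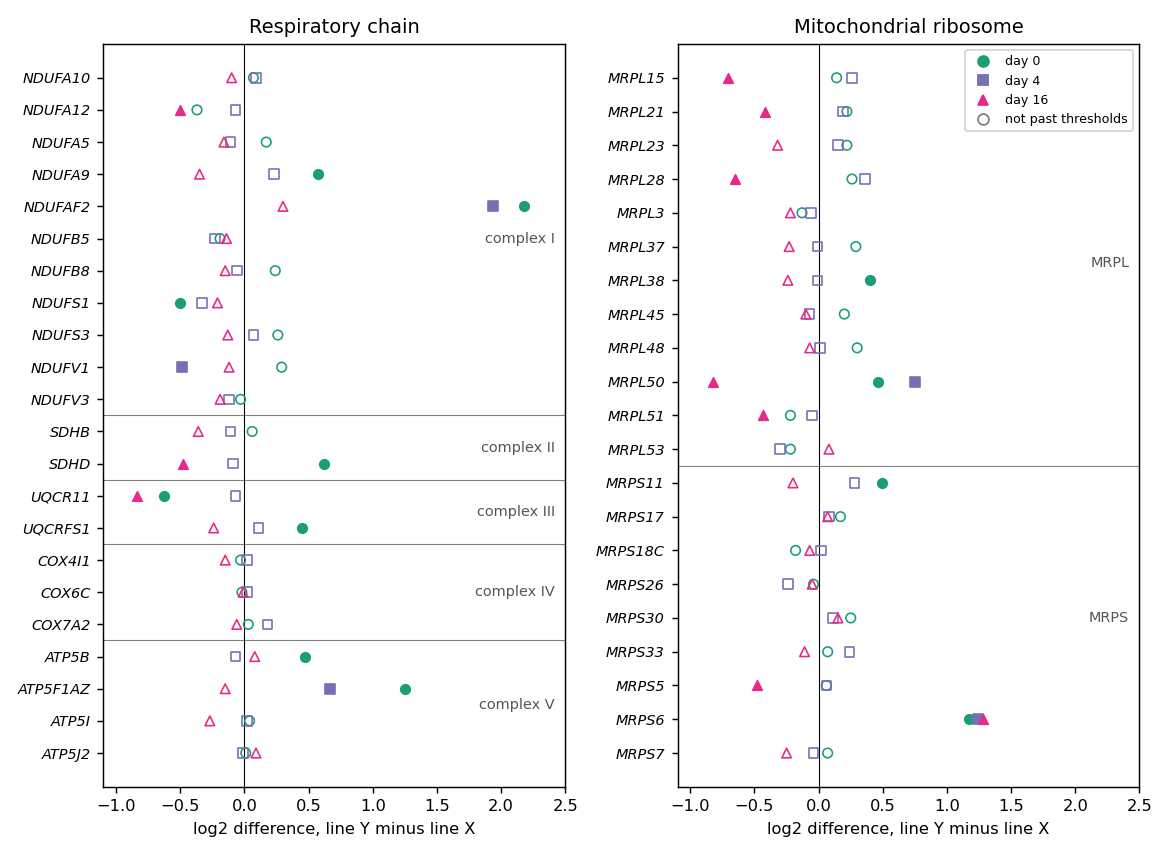
Log2 difference of line Y minus line X (horizontal axis) for each of the 43 genes, grouped by complex or by the names MRPL and MRPS, at day 0 (circles), day 4 (squares) and day 16 (triangles). Filled symbols passed both thresholds; NDUFAF2 at days 0 and 4 lies farthest to the right, ATP5F1AZ at day 0 and MRPS6 on all 3 days lie beyond 1, and most triangles lie left of 0.

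In complex I, the gene with the widest line difference was NDUFAF2, which encodes a factor needed to assemble the complex. NDUFAF2 was measured by 1 probe, so no other probe of the gene could be set beside it. At day 0 its level spanned 9.93 to 10.78 (median 10.46) in line Y pools, against 8.02 to 8.47 (median 8.30) in line X pools. The lines did not overlap, and the difference was 2.18 ± 0.11 on the log2 scale (SE), a 4.54-fold higher level in line Y (adjusted p = 1.07e-20). NDUFA9, an accessory subunit, had 11.97 to 12.31 (median 12.19) in line Y and 11.47 to 11.79 (median 11.56) in line X. It was higher by 0.57 ± 0.08 (adjusted p = 1.05e-07), again without overlap, but its brightest probe alone gave 0.34, short of the fold threshold.

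NDUFS1, the largest iron-sulphur subunit of the complex I arm that oxidises NADH, was one of the 2 genes that were lower in line Y. Its levels were 11.49 to 11.83 (median 11.70) in line Y and 11.97 to 12.32 (median 12.22) in line X, with no overlap. The difference of -0.50 ± 0.08 (adjusted p = 1.53e-06) was carried by 2 of its 3 probes, at -0.77 and -0.51, and the remaining probe gave -0.22. NDUFV1, which binds the flavin that accepts electrons from NADH, and NDUFS3, a core subunit near the coenzyme Q site, differed by 0.29 and 0.26 at day 0 and were not called. The 3 probes of NDUFA10, another accessory subunit, pointed in different directions at day 0. They differed by -0.41, 0.43 and 0.20, and the mean of 0.07 hid 1 probe that was lower and 1 that was higher by the same thresholds.

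In complex II, SDHD, a membrane anchor subunit, was higher in line Y at day 0. It spanned 13.86 to 14.03 (median 13.95) in line Y, a narrow range, and 12.72 to 13.77 (median 13.36) in line X. The lines did not overlap, and the difference was 0.62 ± 0.21 (adjusted p = 0.0123), but with 75th percentile scaling it was 0.28 (adjusted p = 0.289). SDHB, the iron-sulphur subunit of the same complex, differed by 0.06 and was not called. In complex III, UQCRFS1, the Rieske iron-sulphur protein, was higher in line Y, with 14.52 to 14.67 (median 14.64) against 13.89 to 14.39 (median 14.20) in line X. This difference of 0.45 ± 0.07 (adjusted p = 7.38e-07) was 0.26 with 75th percentile scaling and then missed the fold threshold. UQCR11, a small subunit of complex III measured by 1 probe, was lower in line Y by 0.63 on the log2 scale with overlapping pools (adjusted p = 0.0466), and the call was lost on leaving out any of 11 of the 14 day 0 pools.

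In complex V, the alpha subunit gene ATP5F1AZ and the beta subunit gene ATP5B were higher in line Y at day 0. The level of ATP5B was 15.23 to 15.60 (median 15.31) in line Y and 14.39 to 15.31 (median 14.91) in line X, a difference of 0.47 ± 0.11 (adjusted p = 3.25e-04) with overlapping pools. Its 3 probes gave 0.94, 0.36 and 0.11, the last of them saturated on 27 arrays. ATP5F1AZ spanned 12.61 to 13.35 (median 13.10) in line Y, against 11.30 to 12.43 (median 11.76) in line X. The lines were separate, and the difference was 1.25 ± 0.11, or 2.38-fold (adjusted p = 1.60e-12). In complex IV none of the 3 genes was called, and COX7A2, the only one of them with an unsaturated probe, differed by 0.03.

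Most of the ATP5F1AZ difference came from 1 of its 6 probes (the plot of its probes). That probe averaged 10.68 in line Y and 6.13 in line X at day 0, a difference of 4.55 ± 0.18 (adjusted p = 1.41e-24). Its level in line X was near that of the dark corner spots, the brightest of which lay at 4.52 to 6.4 on these arrays. The difference of that probe was 3.91 ± 0.17 on the fourth day (adjusted p = 2.10e-22) and -0.39 ± 0.17 on the sixteenth (adjusted p = 0.0465). Another 3 probes were higher in line Y by 0.87 to 1.0 at day 0 and were not called at days 4 and 16, and the fifth differed by -0.02. The brightest probe, at 0.13, was saturated on 6 of 7 line Y arrays and 0 of 7 line X arrays at day 0, so that its difference is only a lower limit. Without the widest probe, which was left out after its values were seen, the gene was still higher at day 0, by 0.59 ± 0.12 (adjusted p = 4.66e-05). At day 4 it then differed by 0.02 (adjusted p = 0.925). A W-linked copy of the gene, ATP5F1AW, is annotated, and whether any of the probes also binds it was not tested.

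**Figure D3:**
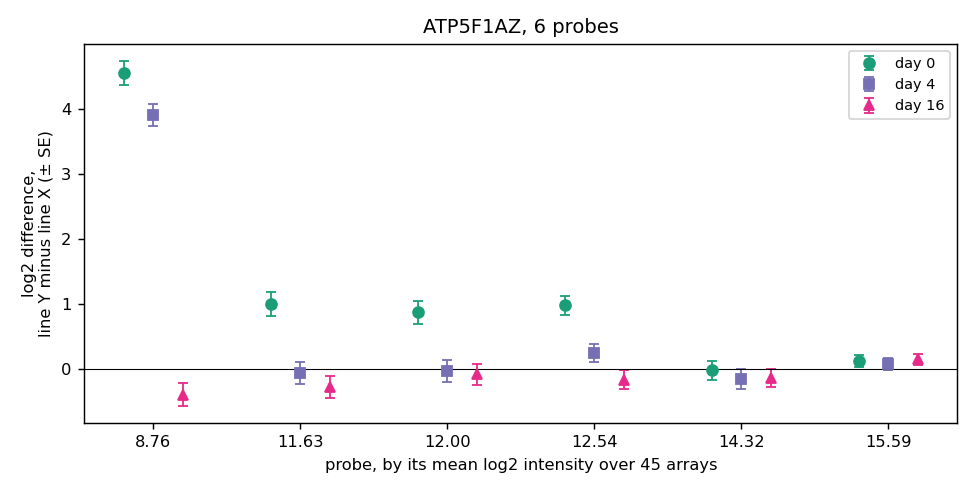
Log2 difference of line Y minus line X (vertical axis, bars are SE) for the 6 probes of ATP5F1AZ, ordered by their mean log2 intensity (horizontal axis), at days 0, 4 and 16. The dimmest probe lies at 4.55 and 3.91 at days 0 and 4, and the 2 brightest lie near 0 on all days, the brightest being saturated on 6 of 7 line Y arrays at day 0.

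In the mitochondrial ribosome, MRPS6, a small subunit protein measured by 1 probe, had the largest line difference of its class on each of the 3 days. At day 0 it spanned 9.94 to 10.39 (median 10.22) in line Y, against 8.88 to 9.23 (median 9.0) in line X. At day 4 it spanned 9.23 to 9.74 (median 9.44) in line Y and 8.10 to 8.43 (median 8.22) in line X. At day 16 it spanned 9.48 to 9.74 (median 9.65) in line Y and 8.10 to 8.57 (median 8.35) in line X. The 2 lines were separate on all days. The differences were 1.17 ± 0.09, 1.24 ± 0.08 and 1.28 ± 0.08 (adjusted p = 1.92e-15, 2.75e-16 and 7.17e-17), between 2.25-fold and 2.43-fold. The other 3 genes that were higher at day 0 were MRPS11 (0.49 ± 0.09), MRPL50 (0.46 ± 0.15) and MRPL38 (0.40 ± 0.09), each with overlapping pools. MRPL38 fell short of the fold threshold without line X pool 5 (0.35) or line Y pool 4 (0.37), and the 2 probes of MRPL50 gave 1.17 and -0.26. MRPL3, MRPS7 and MRPS5, other proteins of the ribosome, differed by -0.13, 0.07 and 0.06 and were not called.

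Markers of other cell types also differed at day 0. All 4 erythrocyte genes tested were higher in line Y, with a mean deviation of -1.93 to -0.87 in line Y pools and of -2.67 to -1.99 in line X pools. Of 7 genes of cycling cells 3 were higher and 0 lower, and of 6 smooth muscle genes 2 were higher and 0 lower. Of 3 B cell genes 0 were higher and 2 lower, with a median of -0.43. None of the 3 T cell and 4 macrophage genes was called. Of the genes with a symbol, 19.3% were higher and 10.8% lower. None of the 13 enterocyte genes was called, and the part of these cell types in the day 0 differences was not tested.

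**Figure D4:**
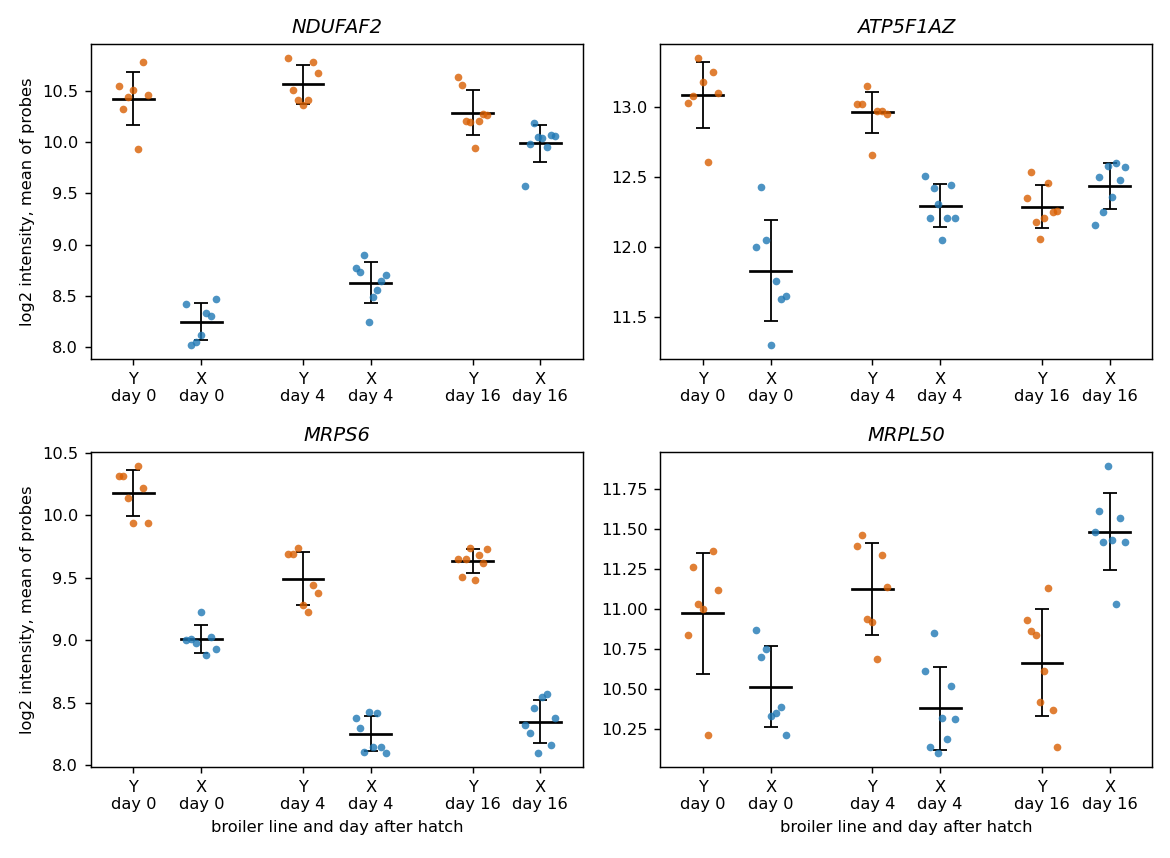
Log2 intensity (vertical axis, mean of the probes of a gene) of NDUFAF2, ATP5F1AZ, MRPS6 and MRPL50 in each pool of lines Y and X at days 0, 4 and 16; horizontal lines are means and bars are SD. NDUFAF2 and ATP5F1AZ are separate between lines at days 0 and 4 only, MRPS6 is separate on all days, and MRPL50 is higher in line Y at days 0 and 4 and lower at day 16.

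Fewer genes differed at day 4. Of the 43 genes, 4 were higher and 1 lower in line Y, where 12.1% of all features were higher and 11% lower, and 10.5% and 6.76% of the genes with a symbol. The class medians were -0.04 for the respiratory chain and 0.06 for the mitochondrial ribosome, against -0.05 for all features. The higher genes were NDUFAF2, ATP5F1AZ, MRPS6 and MRPL50. NDUFAF2 had 10.36 to 10.82 (median 10.51) in line Y and 8.24 to 8.90 (median 8.67) in line X, a difference of 1.94 ± 0.11 (adjusted p = 6.01e-19) without overlap. MRPL50, a large subunit protein, had 10.69 to 11.46 (median 11.14) in line Y and 10.10 to 10.85 (median 10.31) in line X. It was higher by 0.75 ± 0.15 (adjusted p = 8.85e-05), with 1.09 and 0.40 for its 2 probes, although the pools overlapped. The lower gene was NDUFV1, with 11.57 to 12.51 (median 11.98) in line Y against 12.06 to 12.63 (median 12.47) in line X. Its pools overlapped, and the difference of -0.49 ± 0.15 (adjusted p = 8.48e-03) came mainly from 1 of its 2 probes, at -0.71 against -0.26 for the other.

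At day 16 most calls were lower in line Y, whereas most at day 0 were higher. The day 0 direction depended on the scaling, with 5 higher and 7 lower under 75th percentile scaling. Of the 43 genes, 1 was higher and 9 were lower in line Y, where 18.6% of all features were higher and 14.6% lower, and 11.3% and 13.3% of the genes with a symbol. The share of the 43 genes that was lower was 20.9%. The mitochondrial ribosome had 6 of 21 genes lower and 1 higher, with a median of -0.22, and the respiratory chain 3 of 22 lower and 0 higher, with a median of -0.15. The median of all features was 0.02. Only 7 of the 43 genes had a positive difference, 3 of the respiratory chain and 4 of the ribosome. Both medians were negative under each of 13 alternatives, between -0.28 and -0.10 for the respiratory chain and between -0.29 and -0.08 for the ribosome.

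Of the 12 large subunit genes, 5 were lower in line Y at day 16, and for 3 of them the pools were separate (the plot of day 16 genes). The share of all features with separate pools was not counted, so separate pools have no background here or on the other days. MRPL15 spanned 8.79 to 9.88 (median 9.44) in line Y, against 9.99 to 10.31 (median 10.17) in line X. The difference was -0.71 ± 0.11 (adjusted p = 8.45e-07), and all 3 of its probes were lower, by 1.18, 0.59 and 0.38 on the log2 scale. MRPL51 had 12.68 to 13.02 (median 12.85) in line Y and 13.06 to 13.46 (median 13.28) in line X, a difference of -0.43 ± 0.06 (adjusted p = 7.25e-08). MRPL21 had 11.37 to 11.88 (median 11.71) in line Y and 11.88 to 12.28 (median 12.10) in line X, a difference of -0.42 ± 0.08 (adjusted p = 1.95e-05), and its pools were separate before rounding. MRPL23 was also separate, yet its difference of -0.32 did not reach the fold threshold. Among the small subunit genes, MRPS5 was lower and separate, with 10.68 to 11.48 (median 11.18) in line Y and 11.51 to 11.80 (median 11.62) in line X. Its difference was -0.48 ± 0.08 (adjusted p = 7.25e-06), though its brighter probe alone gave -0.12 (adjusted p = 0.128).

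MRPL50, which had been higher in line Y on the earlier days, was lower at day 16. It spanned 10.14 to 11.13 (median 10.73) in line Y and 11.03 to 11.89 (median 11.45) in line X, with overlap. The difference was -0.82 ± 0.14 (adjusted p = 7.58e-06), and both of its probes were lower, at -1.1 and -0.54.

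**Figure D5:**
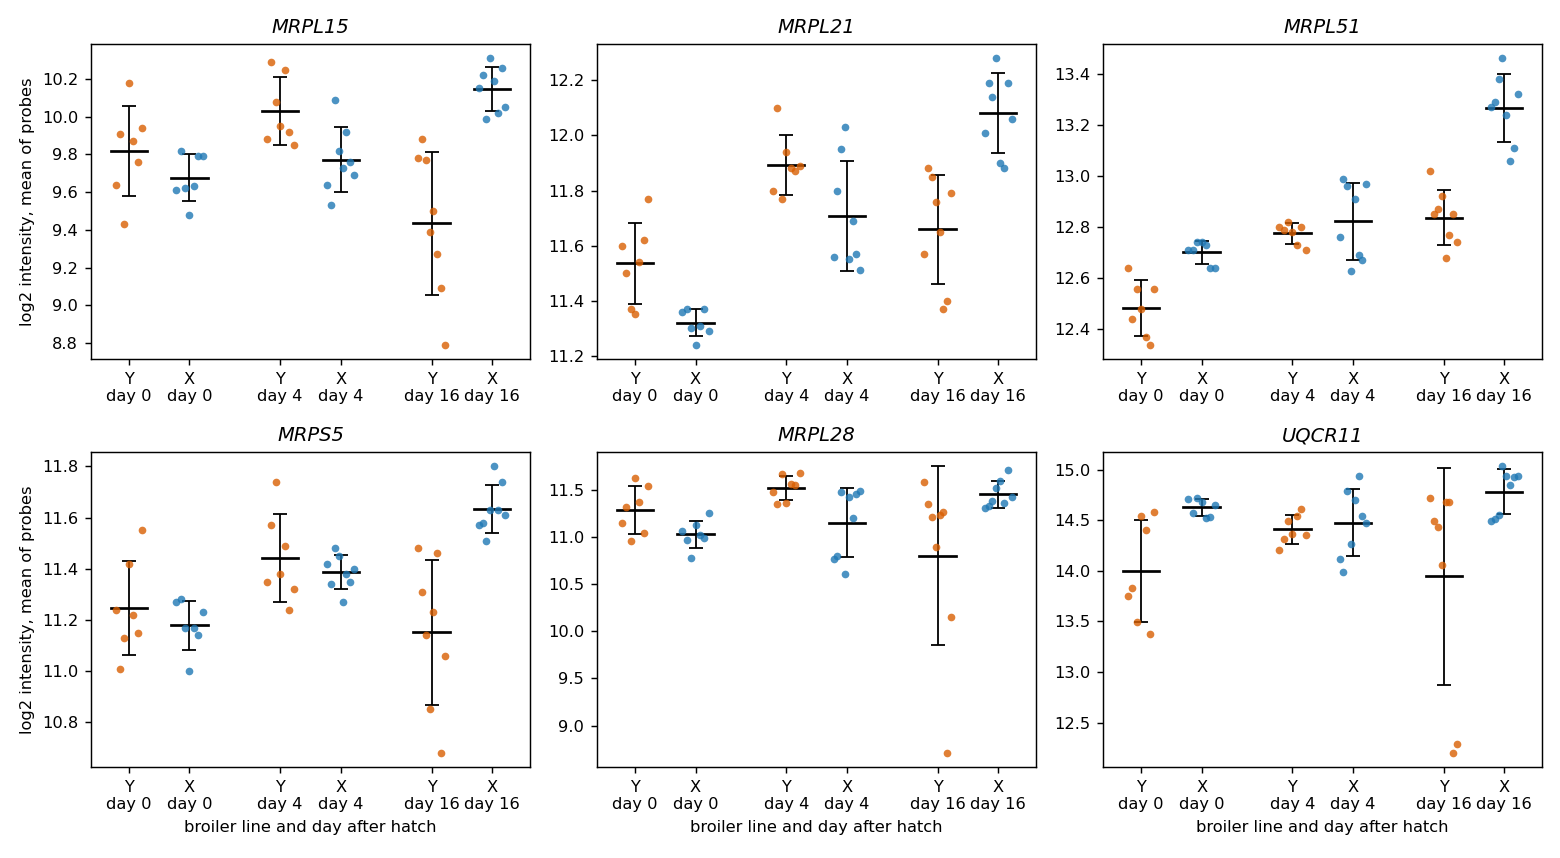
Log2 intensity (vertical axis, mean of the probes of a gene) of MRPL15, MRPL21, MRPL51, MRPS5, MRPL28 and UQCR11 in each pool of lines Y and X at days 0, 4 and 16; horizontal lines are means and bars are SD. At day 16 the first 4 genes separate the lines, whereas line Y pools 23 and 24 lie far below the other line Y pools for UQCR11 and MRPL28.

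Several day 16 calls rested on 1 or 2 line Y pools. The arrays of pools 23 and 24 had the lowest median raw intensities of line Y at day 16, at 121.5 and 110. The other 6 lay at 127 to 183, and line X arrays of that day at 78 to 170. The part of array brightness in these values was not tested. UQCR11 was at 12.20 and 12.29 in pools 23 and 24 of line Y and at 14.06 to 14.72 in its other 6 pools, against 14.49 to 15.03 (median 14.89) in line X. It was lower by 0.84 on the log2 scale over all pools (adjusted p = 5.28e-03), but differed by -0.27 (adjusted p = 0.136) without these 2 pools. MRPL28 in the same pools was at 8.71 and 10.15, against 10.89 to 11.58 in the other 6, and its difference of -0.65 (adjusted p = 0.0109) became -0.20 (adjusted p = 0.174) without them. NDUFA12, an accessory complex I subunit, was at 12.86 and 12.60 in pools 23 and 24 and at 13.70 to 14.27 in the others, and its difference of -0.50 (adjusted p = 0.0212) became -0.15 (adjusted p = 0.382). Without pool 23 alone NDUFA12 was at -0.37 (adjusted p = 0.077) and MRPL28 at -0.36 (adjusted p = 0.0334, short of the fold threshold), and without pool 24 alone NDUFA12 was at -0.33 (adjusted p = 0.0876). SDHD was at 11.41 in line Y pool 17 and at 12.94 to 13.96 in the other 7, and its difference of -0.48 (adjusted p = 0.0372) became -0.21 (adjusted p = 0.164) without pool 17. The SDHD call was also lost on leaving out line Y pool 21 or 24 or line X pool 18, 20 or 21, with adjusted p up to 0.0737. The lower level of MRPL15, MRPL21, MRPL50, MRPL51 and MRPS5 and the higher level of MRPS6 passed both thresholds without pools 23 and 24. COX7A2, not called as a gene at day 16, had 1 probe lower by 0.49 on the log2 scale and 1 probe higher by 0.43.

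In bulk tissue these levels depend on which cells were present. At day 16, 4 of the 6 smooth muscle genes tested were higher in line Y and 0 were lower, and 4 of the 13 enterocyte genes were lower and 0 higher. Of 4 erythrocyte genes 2 were higher and 0 lower, with a median of 0.42. Of 7 genes of cycling cells 1 was higher and 0 lower, and of 4 macrophage genes 0 were higher and 1 lower. None of the 3 T cell and 3 B cell genes was called. Of the genes with a symbol, 11.3% were higher and 13.3% lower. The mean deviation of the smooth muscle genes was -0.60 to 0.13 in line Y pools and -0.98 to -0.28 in line X pools, and that of the enterocyte genes was -0.40 to -0.08 and -0.13 to 0.19. The enterocyte genes that were lower included MTTP and APOB, which serve in lipid export, at -1.0 and -0.77. The part of these cell types in the day 16 differences was not tested.

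Over the first 4 days more of the 43 genes were called in line X than in line Y. Between days 0 and 4, 14 of the 43 genes rose and 2 fell in line X, while 25% of all features rose and 26.7% fell. Of the genes with a symbol 32.1% rose and 15.2% fell, so that the share of 32.6% that rose among the 43 genes was near the background. In line X 9 of 22 respiratory chain genes rose and 0 fell, and 5 of 21 ribosomal genes rose and 2 fell. Without line X pool 5 at day 0 the number of calls was 10 instead of 16. In line Y 3 genes rose and 2 fell, where 18.2% of all features rose and 24.3% fell, and 21.9% and 14.8% of the genes with a symbol. With 75th percentile scaling, however, 11 rose and 2 fell in line Y, beside 20.1% and 24.1% of all features. In line X 13 rose and 2 fell with that scaling, beside 26% and 27.4% of all features. The median change was 0.00 in line Y and 0.13 in line X for the respiratory chain, and 0.15 in line Y and 0.12 in line X for the ribosome, against -0.03 in line Y and 0 in line X for all features. Without saturated probes the respiratory chain medians were -0.01 in line Y and 0.38 in line X. With 75th percentile scaling, the respiratory chain median less that of all features was 0.26 in line Y and 0.19 in line X. The order of the lines thus depended on these choices. Markers of other cell types moved over the same days in both lines. All 4 erythrocyte genes rose, with medians of 3.41 in line Y and 3.94 in line X, as did all 4 macrophage genes (1.57 in line Y and 1.58 in line X) and all 3 T cell genes (1.84 in line Y and 1.58 in line X). Of 7 genes of cycling cells 6 rose in line Y and 7 in line X, and of 6 smooth muscle genes 0 rose in line Y and 3 in line X. The part of these cell types in the changes was not tested.

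COX7A2, a small complex IV subunit, and MRPL53, a large subunit protein, rose in both lines. In line Y COX7A2 had 12.40 to 12.70 (median 12.51) at day 0 and 12.79 to 13.29 (median 13.04) at day 4, and in line X 12.36 to 12.58 (median 12.47) and 12.68 to 13.13 (median 12.85). The rise was 0.52 ± 0.08 in line Y (adjusted p = 1.10e-07) and 0.38 ± 0.07 in line X (adjusted p = 1.45e-05), without overlap between days. The rise in line X lay at the fold threshold. It was short of it with a normexp offset of 50 (0.35), with the brightest probe (0.23) and without any 1 of 7 line X pools. MRPL53 rose by 0.48 ± 0.08 in line Y (adjusted p = 6.77e-07) and by 0.56 ± 0.07 in line X (adjusted p = 1.02e-08), also without overlap. MRPS6 fell in both lines while keeping its line difference, by 0.69 in line Y (adjusted p = 4.16e-09) and by 0.75 in line X (adjusted p = 1.09e-10) on the log2 scale.

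The other largest rises per complex up to day 4 were called in line X alone, although a call in one line only does not show that the lines differ. In line X, NDUFV1 rose by 0.73 ± 0.15 (adjusted p = 3.85e-05), ATP5B by 0.54 ± 0.11 (adjusted p = 1.83e-05), MRPS26 by 0.52 ± 0.07 (adjusted p = 3.77e-08), UQCRFS1 by 0.48 ± 0.07 (adjusted p = 4.55e-08) and SDHD by 0.48 ± 0.20 (adjusted p = 0.0368). Day 0 and day 4 pools were separate for MRPS26 and UQCRFS1 and overlapped for NDUFV1, ATP5B and SDHD. The rise of NDUFV1 came from 1 of its 2 probes, at 1.4, while the brighter probe gave 0.06 (adjusted p = 0.658). The rise of SDHD was lost without any 1 of 8 line X pools (adjusted p of 0.0534 to 0.109). The corresponding differences in line Y were -0.05, 0.00, 0.32, 0.14 and -0.23.

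Between days 4 and 16 the calls in line Y were all falls, at a share near the background. In line Y 0 of the 43 genes rose and 8 fell, where 14.2% of all features rose and 15.9% fell, and 9.57% and 17.2% of the genes with a symbol, and the count was 4 without line Y pools 23 and 24 and 5 without pool 24 alone. In line X 3 rose and 2 fell, where 14.1% of all features rose and 20.7% fell, and 13.6% and 16.8% of the genes with a symbol. With 75th percentile scaling, however, 13 rose and 1 fell in line X, beside 18.2% and 19% of all features. In line Y ATP5F1AZ fell from day 4 to day 16 by 0.67 on the log2 scale (adjusted p = 2.65e-06), with pools at 12.66 to 13.15 at day 4 and 12.06 to 12.54 at day 16. UQCRFS1 fell by 0.41 in line Y (adjusted p = 3.57e-06) and NDUFA10 by 0.39 (adjusted p = 4.75e-05), each with separate pools. Both calls were lost with 75th percentile scaling, and that of UQCRFS1 also with its brightest probe. NDUFA10 was at -0.29, short of the fold threshold, without pools 23 and 24, and at -0.37, -0.36 and -0.34 without pool 19, 23 or 24 alone. The fall of MRPL28 by 0.72 in line Y (adjusted p = 8.24e-03) was -0.26 (adjusted p = 0.0858) without those pools and -0.42 (adjusted p = 0.0175) without pool 23 alone. In line X, NDUFAF2 rose by 1.36 ± 0.10 (adjusted p = 8.81e-15) and MRPL50 by 1.1 ± 0.14 (adjusted p = 1.89e-08), each without overlap between days. ATP5B fell by 0.46 in line X (adjusted p = 2.08e-04), a call lost with its brightest probe or with 75th percentile scaling. In the same line MRPS30 fell by 0.38 (adjusted p = 0.0134), a call lost without any 1 of 8 line X pools. Over the same days all 4 erythrocyte genes and all 6 smooth muscle genes fell in both lines, and all 3 T cell and all 3 B cell genes rose. Their part in these changes was not tested.

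Over the whole period, 3 of the 43 genes rose and 8 fell in line Y, where 18.1% of all features rose and 27.1% fell, and 19.7% and 22.1% of the genes with a symbol. In line X 16 rose and 4 fell, where 27.2% of all features rose and 34.1% fell, and 34.3% and 22.6% of the genes with a symbol. With 75th percentile scaling 9 rose and 7 fell in line Y, beside 19.6% and 28.6% of all features. In line X 25 rose and 2 fell with that scaling, beside 31% and 32.9% of all features. The class medians in line Y were -0.13 for the respiratory chain and -0.04 for the ribosome, against -0.08 for all features, and both were positive, at 0.12 and 0.07, with 75th percentile scaling. In line X they were 0.23 and 0.33, against -0.07 for all features and 0.12 for the genes with a symbol. NDUFA10 and MRPS30 fell in both lines. MRPS30, a mitochondrial ribosome protein measured by 1 probe, had medians of 11.24, 10.49 and 10.18 at days 0, 4 and 16 in line Y and of 10.88, 10.47 and 10.10 in line X. It fell by 0.95 in line Y (adjusted p = 7.83e-08) and by 0.85 in line X (adjusted p = 4.64e-07) on the log2 scale. NDUFA10 fell by 0.63 in line Y (adjusted p = 1.62e-09) and by 0.46 in line X (adjusted p = 1.02e-06), and the call in line X was lost with 75th percentile scaling.

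COX7A2 rose in both lines from day 0 to day 16, by 0.57 ± 0.07 in line Y (adjusted p = 4.79e-09) and by 0.67 ± 0.07 in line X (adjusted p = 4.60e-11). In line X the largest rises were those of NDUFAF2 (1.74 ± 0.11, adjusted p = 1.16e-18) and MRPL50 (0.97 ± 0.15, adjusted p = 1.95e-07). The brighter probe of MRPL50 alone gave 0.18 (adjusted p = 0.212) and was not called. MRPS11, a small subunit protein, rose by 0.59 ± 0.09 in line X (adjusted p = 1.25e-07), UQCRFS1 by 0.42 ± 0.07 (adjusted p = 4.92e-07) and SDHD by 0.44 ± 0.20 (adjusted p = 0.0463). Without line X pool 5 UQCRFS1 was at 0.38, short of the fold threshold, and the rise of SDHD was lost without any 1 of 10 line X pools. ATP5F1AZ rose by 0.61 ± 0.11 in line X (adjusted p = 4.19e-06) but by 0.07 (adjusted p = 0.595) without its widest probe, and its brightest probe, saturated on 0 line X arrays of either day, gave -0.59. In line Y ATP5F1AZ fell by 0.80 (adjusted p = 3.29e-08), MRPL37 by 0.65 (adjusted p = 8.37e-10) and SDHD by 0.65 (adjusted p = 5.17e-03), while MRPL53 rose by 0.55 ± 0.07 (adjusted p = 1.42e-08) and MRPS18C by 0.42 ± 0.08 (adjusted p = 6.85e-06). The fall of SDHD in line Y was -0.39 (adjusted p = 0.0111) without pool 17 of day 16. Its call was lost with 75th percentile scaling or when only the groups compared were fitted (adjusted p up to 0.0768). Over these 16 days all 3 T cell genes tested rose in both lines, with medians of 3.36 in line Y and 3.47 in line X, as did all 4 erythrocyte genes (1.64 in line Y and 2.01 in line X), all 3 B cell genes (3.14 in line Y and 3.02 in line X) and all 4 macrophage genes (1.65 in line Y and 2.07 in line X), and 5 of 6 smooth muscle genes fell in each line. The part of these cell types in the changes with age was not tested.

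The change of the line difference itself was tested as an interaction of line and day. From day 0 to day 16 the difference of line Y minus line X fell for 18 of the 43 genes and rose for 0, where it rose for 24.6% of all features and fell for 20%, and rose for 14.1% and fell for 25.5% of the genes with a symbol. It fell for 9 of 22 respiratory chain genes and for 9 of 21 ribosomal genes. The median change was -0.32 in either class, against 0.05 over all features and -0.08 over the genes with a symbol, and over 12 alternatives it ranged from -0.40 to -0.17 in the respiratory chain and from -0.35 to -0.10 in the ribosome. From day 4 to day 16 the difference fell for 11 and rose for 1, where it rose for 20.6% of all features and fell for 14.7%, and rose for 13.2% and fell for 16.4% of the genes with a symbol. Of these 11 genes, 3 belonged to the respiratory chain and 8 to the ribosome, which also held the gene that rose, MRPL53 (0.38, short of the fold threshold without any 1 of 13 pools). From day 0 to day 4 it fell for 4 and rose for 0, where it rose for 8.83% and fell for 12% of all features, and rose for 4.68% and fell for 12.3% of the genes with a symbol. With 75th percentile scaling, however, 3 rose and 1 fell, beside 8.78% and 11.3% of all features.

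NDUFAF2 had the largest change of its line difference, -1.88 ± 0.15 from day 0 to day 16 (adjusted p = 9.83e-14) and -1.64 ± 0.15 from day 4 to day 16 (adjusted p = 9.78e-12). In this gene line Y stayed at medians of 10.46, 10.51 and 10.24 on the 3 days, while line X stood at 8.30, 8.67 and 10.04. The difference of ATP5F1AZ changed by -1.40 ± 0.16 from day 0 to day 16 (adjusted p = 7.19e-10), and by -0.70 ± 0.16 (adjusted p = 3.84e-04) without its widest probe. MRPL50 changed by -1.57 ± 0.21 from day 4 to day 16 (adjusted p = 7.17e-08), crossing from higher to lower in line Y. From day 0 to day 4 the largest called changes were those of NDUFV1 (-0.78 ± 0.21, adjusted p = 7.28e-03) and ATP5F1AZ (-0.59 ± 0.16, adjusted p = 6.26e-03), while that of SDHD was -0.71 and not called (adjusted p = 0.0716). The NDUFV1 call was lost with its brightest probe, and the ATP5F1AZ call with its brightest probe or with 75th percentile scaling. Every complex other than complex IV, and both the MRPL and the MRPS genes, held genes whose difference fell from day 0 to day 16. In complex IV, every probe of COX4I1 and COX6C was saturated on most arrays, and COX7A2 was not called. The genes whose difference fell were 4 of 11 in complex I, 2 of 2 in complex II, 1 of 2 in complex III, 2 of 4 in complex V, 7 of 12 named MRPL and 2 of 9 named MRPS. The same fall was called for 20% of all features and 25.5% of the genes with a symbol.

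Across all comparisons, 19 of the 43 genes were called between the lines on at least 1 day, beside a background of 61.2% of all features and 48.9% of the genes with a symbol. Of these, 4 were called on 2 days and 2, MRPS6 and MRPL50, on all 3. A further 24 were called on no day, and 10 were called in none of the 12 contrasts. Of these 10, 5 were the genes whose every probe was saturated on at least 1 array, which for NDUFB5 held on only 2 arrays. The other 5 were MRPL3, MRPL48, MRPS7, MRPS17 and MRPS33. The 5 Z-linked genes were NDUFAF2, ATP5F1AZ, ATP5I, MRPL50 and MRPS30, and thus included 3 of the genes with the widest line differences. HINTW, a gene of the W chromosome that females carry, had group means of 15.15 in line Y and 15.4 in line X at day 0. The means were 15.07 in line Y and 15.29 in line X at day 4, and 15.49 in each line at day 16. The sex of the birds is not given in the sources used here, and its part in the differences of Z-linked genes was not tested.

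Other mitochondrial genes outside the symbol rule gave the following counts, to be set beside the genes with a symbol, of which 19.3% were higher and 10.8% lower on day 0, 10.5% higher and 6.76% lower on day 4, and 11.3% higher and 13.3% lower on day 16. Of 10 citric acid cycle genes tested, 4 were higher and 1 lower in line Y at day 0, 3 higher and 0 lower at day 4, and 0 called at day 16. Those higher at day 0 were DLD (0.84), FH (0.67), SUCLG1 (0.51) and IDH2 (0.42), all enzymes of the cycle, and OGDH was lower at -0.41. Of 10 assembly factors tested, 1 was higher at day 0 and at day 4 and 4 were lower at day 16. The higher one was TMEM70, which serves in the assembly of complex V, at 1.28 (adjusted p = 1.34e-17) and 0.70 (adjusted p = 7.36e-10). Those lower at day 16 were UQCC1 (-0.59) and BCS1L (-0.41), which serve complex III, and COX19 (-0.56) and SURF1 (-0.48), which serve complex IV. HCCS, the lyase that attaches haem to cytochrome c, was higher in line Y by 0.76 at day 0 and by 0.50 at day 4, and CYCS, cytochrome c itself, differed by 0.37 and 0.14 and was not called. Of 4 genes of mitochondrial DNA maintenance and transcription tested, 0 were higher and 1 was lower at day 0 and at day 4, and none was called at day 16. Of 3 mitochondrial aminoacyl-tRNA synthetases tested, 1 was higher in line Y on each day and 1 was lower at day 0.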

How the data were processed

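The authors deposited raw intensity values of every spot and a table of log2 values, made with limma in R (version 3.0.2 in their notes) (normexp background correction at offset 1, then quantile normalization, then averages of duplicate spots). Recomputing these log2 values from the deposited intensities gave differences of at most 5e-09. Here the deposited log2 values were averaged over all probes of a gene, named through RefSeq accessions and used without coordinates. Probes had to lie above 1.1 times the log2 value of the brightest dark corner spot on all arrays of 1 group or more, which left 25527 of 43603 probes and 21443 features. The contrasts were fitted with limma version 3.58.1 (lmFit and eBayes, R version 4.3.3) to all 45 arrays and 6 groups, with calls at an adjusted p below 0.05 and a fold above 1.3, and tested on simulated data. Figures were drawn with matplotlib version 3.10.9. Arrays give no counting depth, so that their number and brightness limit the precision.

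The genes, lists and tests were chosen with earlier results of these data known. Genes were named by role in each complex, by the largest called difference per complex whose pools were separate, by the largest change over time per complex, by probes called in opposite directions and by the largest changes of the line difference. UQCR11, NDUFA12, MRPL21, MRPL23, MRPL38, HINTW, the genes said to be called nowhere and the genes outside the symbol rule were named after their values were seen. Pool numbers recur in both lines and mark the same slide position. Deviations of same-numbered pools correlated above 0.1 in 7 of 7 pairs at day 4 (0.102 to 0.261), in 4 of 7 at day 0 and in 3 of 8 at day 16, so that day 4 was treated as paired in an alternative with a replicate block. Other alternatives were the summary over probes, the scaling, the offset, the filter, the groups in the fit and leaving out single pools. Promoter and protein sequences were not used here.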

Additional observations from a re-analysis of the deposited data

Results flagged for a closer look

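The change of the line difference (line Y minus line X) was tested between days and passed the thresholds in the respiratory chain for 3 genes from day 0 to day 4, 3 from day 4 to day 16 and 9 from day 0 to day 16, and in the mitochondrial ribosome for 1, 9 and 9 genes. These are 13.6%, 13.6% and 40.9% of the respiratory chain and 4.76%, 42.9% and 42.9% of the ribosome, beside 20.8%, 35.2% and 44.6% of all features. The largest called changes were -0.78 for NDUFV1 and -0.59 for ATP5F1AZ from day 0 to day 4, -1.64 for NDUFAF2 and -1.57 for MRPL50 from day 4 to day 16, and -1.88 for NDUFAF2 and -1.40 for ATP5F1AZ from day 0 to day 16. Those of NDUFV1 and ATP5F1AZ from day 0 to day 4 were not called with the brightest probe alone.

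A single pool stood far from the rest of its group in 18 of 180 groups of values, where chance gives about 1 in 20. The lowest pools were SDHD in line Y pool 17 at day 16 (11.41, others 12.94 to 13.96), MRPS30 in line Y pool 6 at day 0 (10.34, others 11.08 to 11.64), MRPS11 in line Y pool 5 at day 0 (13.07, others 13.49 to 13.71), NDUFA9 in line Y pool 15 at day 4 (11.82, others 12.02 to 12.13), and, in line Y pool 12 at day 4, ATP5F1AZ (12.66, others 12.95 to 13.15) and MRPS26 (11.85, others 11.98 to 12.08). Line X held NDUFAF2 in pool 17 at day 16 (9.57, others 9.95 to 10.19) and NDUFS1 in pool 3 at day 0 (11.97, others 12.21 to 12.32). The highest pools were NDUFV1 in line Y pool 4 at day 0 (12.71, others 11.69 to 12.01) and MRPS30 in line Y pool 9 at day 4 (10.98, others 10.37 to 10.58). The other 8 concerned genes at the scanner ceiling, where most pools are tied near 16.00, so that the rate given by chance does not apply to them. COX4I1 was at 15.14 in line Y pool 23 at day 16, 15.73 in line X pool 4 at day 0 and 15.74 in line X pool 9 at day 4. COX6C was at 15.90 in line Y pool 3 at day 0, 15.94 in line Y pool 11 at day 4, 15.98 in line X pool 8 at day 0, 15.81 in line X pool 11 at day 4 and 15.96 in line X pool 24 at day 16.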

How the results depend on the processing

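Counts of called genes among the 43 are given here as the alternative's value against that in the report. The brightest probe of each gene gave 7 against 12 between lines at day 0 and 6 against 10 at day 16, 9 against 16 from day 0 to day 4 in line X, 3 against 8 from day 4 to day 16 in line Y, 11 against 20 from day 0 to day 16 in line X, and 7 against 12 and 9 against 18 for the change of the line difference from day 4 to 16 and from day 0 to 16. It also turned the change of ATP5F1AZ from day 0 to day 16 to -0.59 in line X and to 0.01 for the line difference, where that probe was saturated on 6 of 7 line Y arrays at day 0, so that the 0.01 is no measure of the change. Scaling to the 75th percentile gave 16 against 10 between lines at day 16, 13 against 5 from day 0 to day 4 in line Y, and 4 against 8 in line Y and 14 against 5 in line X from day 4 to day 16. With this scaling, 17.6% of all features were higher and 18.5% lower between lines at day 16. In line Y 20.1% rose and 24.1% fell from day 0 to day 4. From day 4 to day 16, 13.6% rose and 17.9% fell in line Y, and 18.2% rose and 19% fell in line X. The limit on dim probes passed in all groups left 38 of the 43 genes, and NDUFAF2, MRPS6, MRPL15 and MRPS30 were among those removed. It gave 3 against 5 between lines at day 4, from day 0 to day 4 in line Y and from day 4 to day 16 in line X. The calls of NDUFAF2 and MRPS6 at day 4 could thus not be tested under this limit. Fitting only the groups compared gave 6 against 10 at day 16. Without the fold threshold, the counts were 22, 13 and 23 between lines at days 0, 4 and 16 (51.2%, 30.2% and 53.5%, beside 53.8%, 38.1% and 52.1% of all features). From day 0 to day 4 they were 17 in line Y and 25 in line X (39.5% and 58.1%, beside 57.7% and 67.4% of all features). From day 4 to 16 they were 16 in line Y and 24 in line X (37.2% and 55.8%, beside 46.5% and 53.2%). From day 0 to 16 they were 22 in line Y and 33 in line X (51.2% and 76.7%, beside 61.6% and 74.8%). For the line difference from day 0 to day 4 the count was 10 (23.3%, beside 24.3%). Without line Y pools 23 and 24, left out after seeing the data, 4 genes fell from day 4 to day 16 in line Y.

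Leaving out 1 pool at a time gave 10 to 14, 5 and 8 to 11 calls between lines at days 0, 4 and 16, 5 to 6 in line Y and 10 to 16 in line X from day 0 to day 4, 5 to 10 in line Y and 4 to 6 in line X from day 4 to 16, 10 to 12 in line Y and 16 to 21 in line X from day 0 to 16, and 3 to 6, 10 to 13 and 15 to 20 for the line difference from day 0 to 4, from day 4 to 16 and from day 0 to 16. With the pool number as a replicate block, which pairs the pools of day 4, 11, 5 and 10 genes were called between lines at days 0, 4 and 16. No call between lines of a gene named by rule for its line difference changed. Leaving out probes saturated on any array, also chosen after seeing the data, gave a respiratory chain median of 0.24 at day 0 against 0.07. Medians of all features moved by less than 0.1 under the other scalings. The cause of these shifts was not tested.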
